A study of Mus musculus with 6 samples.

Results

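The comparison described here set 2 replicate sets of sorted B16-F10 cells against each other, set 16-9-15 and set 1-9-14, whatever the pigment class of the cells. The members were chosen by the suffix of the library titles, which gave 4 of the 6 libraries of the series, 1 high-pigmented and 1 low-pigmented library in each set. The set with the suffix 18-8-14 was left out by that rule. B16-F10 is an established mouse melanoma line, here taken from a cell bank, grown in serum-containing medium and sorted by flow cytometry on the light scatter that melanin causes. All libraries come from this 1 line, with no genotype difference and no treatment other than the sort. The high-pigmented and low-pigmented classes are those of the labels, and the labels do not say what the suffix marks. Set and anything the suffix stands for therefore cannot be told apart. Neither set holds 2 libraries of the same pigment class, and the labels do not tie the libraries to separate cultures. The p-values measure only how far the set difference varies between the pigment classes, on 1 residual degree of freedom, with error shared over genes.

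In melanoma cells, as in melanocytes, MITF and SOX10 drive the genes of melanin synthesis, which takes place in melanosomes, organelles related to lysosomes. TYR, TYRP1 and DCT are the enzymes of the pathway, PMEL forms the fibrils on which pigment is laid down, and MC1R and cAMP raise the output of MITF. Dividing cells express a separate programme, in which E2F switches on the genes of DNA replication and the MuvB complexes, with B-MYB and FOXM1, switch on those of mitosis.

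Each read comes from near the 3′ end of a transcript, which makes counts independent of transcript length, and levels are given as CPM, gene counts divided by a library size that was scaled by trimmed means. Gene counts were 4680369 (high-pigmented) and 4560186 (low-pigmented) in set 16-9-15, and 6569617 and 7311131 in set 1-9-14, and paired values below keep this order of high- before low-pigmented. At an equal depth of 4560186 counts, 14981 and 14821 genes were seen in the libraries of set 16-9-15 and 13946 and 14430 in those of set 1-9-14. The share of reads that fell on no gene was 17.87% and 14.24% in set 16-9-15 and 13.89% and 12.37% in set 1-9-14, and the part of this difference in the results was not tested. Melanocyte genes such as Dct, Pmel and Tyrp1 were abundant in all 4 libraries, as the labelled cell type has it. Of 18 markers of leukocytes, fibroblasts, endothelium and keratinocytes, 7 are rows of the count table, and they summed to 21 and 31 counts in set 16-9-15 and 7 and 16 in set 1-9-14. Cd14, Itgam and Pecam1 were at 0 in every one of the 4 libraries.

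The sets differed in 3035 of 11906 genes tested (25.5%), called by the quasi-likelihood test of edgeR with pigment as a block, where a Benjamini-Hochberg adjusted p below 0.05 was required over all genes. Set 16-9-15 was higher in 1633 genes (13.7%) and lower in 1402 (11.8%). The counts of called list members below are to be read beside these shares of all genes tested. In 1018 of the higher genes and 530 of the lower ones the difference was at least 2-fold, and in 524 and 142 it was at least 4-fold. Among the largest differences upward were many genes of the cell cycle, and those downward included Cited1 and Ptgds. In the same fit, pigment class called 155 genes (1.30%), of which 111 (0.932%) were higher and 44 (0.370%) lower in high-pigmented cells. Set accounted for 69.9% of the variance over genes, pigment for 16.9% and the remainder for 13.2%. Each share is that of 1 contrast among the 4 libraries and includes noise, and the pigment share was little above the remainder.

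The difference between the sets had the same sign in high- and in low-pigmented cells in all 3035 called genes, a direction that the call itself favours. In 2974 of them both libraries of one set lay above both of the other, which the call also favours. Of all genes tested, 30.0% had both libraries of set 16-9-15 above both of set 1-9-14, and 28.8% had both below. Over all 11906 genes, the difference measured between the high-pigmented libraries and the one measured between the low-pigmented libraries, which share no library, had a Pearson r of 0.68 across genes. Genes are not independent replicates, and each axis rests on 1 library of each set. When the libraries of set 18-8-14 were added to the fit, the same contrast called 0 of 12139 genes in edgeR, with 1030 at an unadjusted p under 0.05, and the common biological coefficient of variation was 54.0% in place of 19.5%. Fits with 1 of the 4 libraries left out had no pigment term, and the calls they ended or the values they moved are given beside the genes, other than genes with at most 3 counts over a set, where the ratio or bound is given instead. Set 18-8-14 stands apart in composition: its 10 most counted rows held 70.2% and 44.6% of gene counts, against 10.6% to 13.4% in the other 4 libraries, and 29.5% and 24.5% of its reads fell on no gene.

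**Figure D1:**
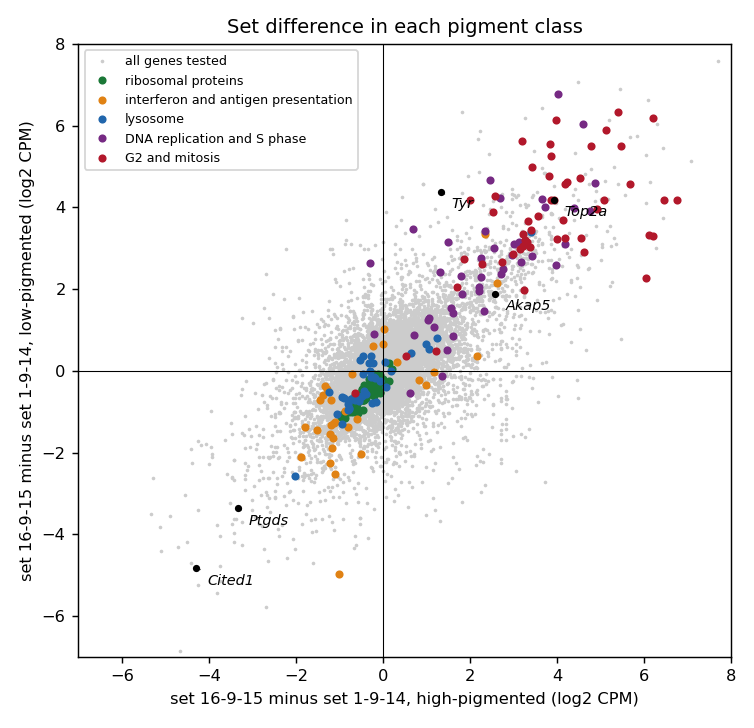
Each point is 1 of the genes tested, with the log2 CPM difference of set 16-9-15 from set 1-9-14 in high-pigmented libraries on the horizontal and in low-pigmented libraries on the vertical axis. Mitosis genes lie at the upper right, and Cited1 and Ptgds at the lower left, away from 0 on both axes.

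Genes of G2 and mitosis were higher in set 16-9-15 in both pigment classes. Of 50 members tested, 47 were called higher and 1 lower, and their median log2 difference was 4.04, beside 0.01 over all genes tested. Their summed level was 4756 and 3715 CPM in set 16-9-15, against 537.5 and 433.3 CPM in set 1-9-14. Both libraries of set 16-9-15 were above both of set 1-9-14 in 49 of these genes, where this held for 30.0% of all genes tested. With any 1 of the 4 libraries left out, and then without a pigment term, between 44 and 48 members were still called higher.

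Top2a, the DNA topoisomerase that untangles sister chromosomes (chromosome 11, 98992943 to 99024189, GRCm38), stood at 456.6 and 241.2 CPM in set 16-9-15 and at 29.9 and 12.9 CPM in set 1-9-14. The lowest value of the first set was thus well above the highest of the second. The log2 difference was 4.07 ± 0.17 (SE), or 16.8-fold, with an adjusted p of 9.61e-15, and it was 4.76 without the high-pigmented library of set 1-9-14. Plk1, the kinase that drives entry into and passage through mitosis, was measured at 171.3 and 122 CPM against 3.53 and 2.35 CPM, a log2 difference of 5.64 ± 0.25 (adjusted p 1.64e-14). Cdk1, the kinase at the core of the mitotic switch, was at 361.6 and 196.5 CPM against 33.9 and 17.6 CPM, a log2 difference of 3.45 ± 0.17 (adjusted p 1.07e-13). Within each set both Top2a and Cdk1 were higher in the high-pigmented library, and the order of the sets was the same in both classes. Ccnb2, one of the B-type cyclins that activate CDK1, was at 27.7 and 61.3 CPM against 0.46 and 0.69 CPM, a log2 difference of 6.21 ± 0.44 (adjusted p 5.83e-11), and it was 5.54 without the low-pigmented library of set 16-9-15.

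The promoters of these 4 genes are shown because the mitosis genes moved together and many of them carry the same short motifs. The windows run from 250 bases before to 50 bases after the start site in RefSeq, build GRCm38.p6, 5′ to 3′ on the gene's strand. They lie at chr11:99024140-99024439 (minus strand) for Top2a, chr7:122159185-122159484 (plus) for Plk1, chr10:69352863-69353162 (minus) for Cdk1 and chr9:70421505-70421804 (minus) for Ccnb2. Capitals mark TTTGAA, the core of the cell cycle genes homology region, and CCAAT, the box bound by NF-Y, on either strand (TTCAAA and ATTGG on the other), and matches of the 2 motifs do not overlap.
Top2a: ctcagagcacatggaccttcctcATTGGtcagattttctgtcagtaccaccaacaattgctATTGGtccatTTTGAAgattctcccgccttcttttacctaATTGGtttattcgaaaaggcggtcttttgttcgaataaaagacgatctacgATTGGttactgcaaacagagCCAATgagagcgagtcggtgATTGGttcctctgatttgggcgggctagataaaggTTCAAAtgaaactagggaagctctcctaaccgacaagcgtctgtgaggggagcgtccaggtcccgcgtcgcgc
Plk1: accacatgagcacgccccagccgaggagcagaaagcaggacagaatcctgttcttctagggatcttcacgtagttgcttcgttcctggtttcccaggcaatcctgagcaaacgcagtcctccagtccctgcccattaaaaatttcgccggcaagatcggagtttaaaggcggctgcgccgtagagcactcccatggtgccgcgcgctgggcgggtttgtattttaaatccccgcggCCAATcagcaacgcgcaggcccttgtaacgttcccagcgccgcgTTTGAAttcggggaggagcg
Cdk1: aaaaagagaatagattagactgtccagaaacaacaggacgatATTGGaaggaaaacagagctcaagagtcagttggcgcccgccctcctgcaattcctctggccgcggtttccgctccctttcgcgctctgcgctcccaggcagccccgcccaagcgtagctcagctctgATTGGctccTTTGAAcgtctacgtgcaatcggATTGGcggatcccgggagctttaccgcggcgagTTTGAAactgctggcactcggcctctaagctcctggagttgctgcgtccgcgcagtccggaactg
Ccnb2: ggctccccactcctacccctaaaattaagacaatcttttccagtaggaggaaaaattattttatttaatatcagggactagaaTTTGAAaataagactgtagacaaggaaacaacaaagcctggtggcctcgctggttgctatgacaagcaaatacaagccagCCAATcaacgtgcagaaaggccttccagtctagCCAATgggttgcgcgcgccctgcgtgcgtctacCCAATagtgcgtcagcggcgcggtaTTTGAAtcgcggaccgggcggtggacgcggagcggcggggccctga
The Top2a window held 2 matches of TTTGAA and 6 of CCAAT, that of Plk1 held 1 of each, and those of Cdk1 and Ccnb2 held 2 and 3 each. Of 43 tested mitosis genes with a promoter in the table, 32 (74.4%) held TTTGAA, a motif present in 14.0% of all 8652 tested genes with a promoter and in 17.9% of all 32851 promoters. CCAAT was also found in 32 of the 43, against 43.3% of the tested genes. Over all tested genes, TTTGAA was in 19.6% of those called higher, 12.2% of those called lower and 13.3% of those not called. A match describes the letters of the window and is not evidence of binding.

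In several mitosis genes almost no counts were found in set 1-9-14. Bub1, a kinase of the spindle checkpoint, had 119 and 114 counts in set 16-9-15 and 0 in both libraries of set 1-9-14, so it was at least 115-fold higher against a floor of 3 counts over the set (adjusted p 2.88e-09). Pbk, a mitotic kinase, had 127 and 103 counts against 0 and 0, at least 114-fold higher, although 955 bases of its transcript are shared with the pseudogene Gm12387 and its call was lost in DESeq2 (adjusted p 0.0819). Both genes were thus counted in each pigment class of set 16-9-15 and in neither of set 1-9-14. Ska1, which helps to hold chromosomes on the spindle, had 206 and 155 counts against 2 and 0, a ratio of 268 with a counting interval of 73.5 to 2218. Kif14, a motor protein of cell division, had 139 and 96 counts against 0 and 1, a ratio of 348 with an interval of 61.9 to 13820. Birc5, which encodes survivin of the chromosomal passenger complex, was measured at 355.5 and 328.3 CPM against 8.12 and 3.73 CPM, a log2 difference of 5.89 ± 0.23 (adjusted p 7.6e-14), and it was 6.5 without the high-pigmented library of set 1-9-14.

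The exceptions in the list were few. Pttg1, the securin that holds back separase, was lower in set 16-9-15, at 64.5 and 56.8 CPM against 100.4 and 82.3 CPM (log2 difference -0.59 ± 0.18, adjusted p 0.0205), and its call was lost in DESeq2 (0.117), without the pigment block (0.0772) and without any single library (0.0603 to 0.336). Ckap5, a microtubule polymerase, had a log2 difference of 0.45 ± 0.21 and did not pass the test (adjusted p 0.116). Ect2, needed for cytokinesis, also did not pass (adjusted p 0.105), with 154 and 140 counts in set 16-9-15 against 1 and 44 in set 1-9-14, and passed without robust estimation (1.89e-05), in limma-voom (0.000317), with no filter (1.51e-08), at equal depth (0.00569) and without the block (0.0379). It also passed without the high-pigmented library of set 1-9-14 (log2 difference 2.37) and without the low-pigmented one (7.48). Mki67, the widely used marker of cycling cells, was called higher, at 70.0 and 53.5 CPM against 0.31 and 2.63 CPM (adjusted p 1.14e-05). Its log2 difference of 5.36 was 4.54 without the high-pigmented and 7.54 without the low-pigmented library of set 1-9-14. In bulk libraries, more cells in a phase of the cycle and more RNA per cell cannot be told apart.

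**Figure D2:**
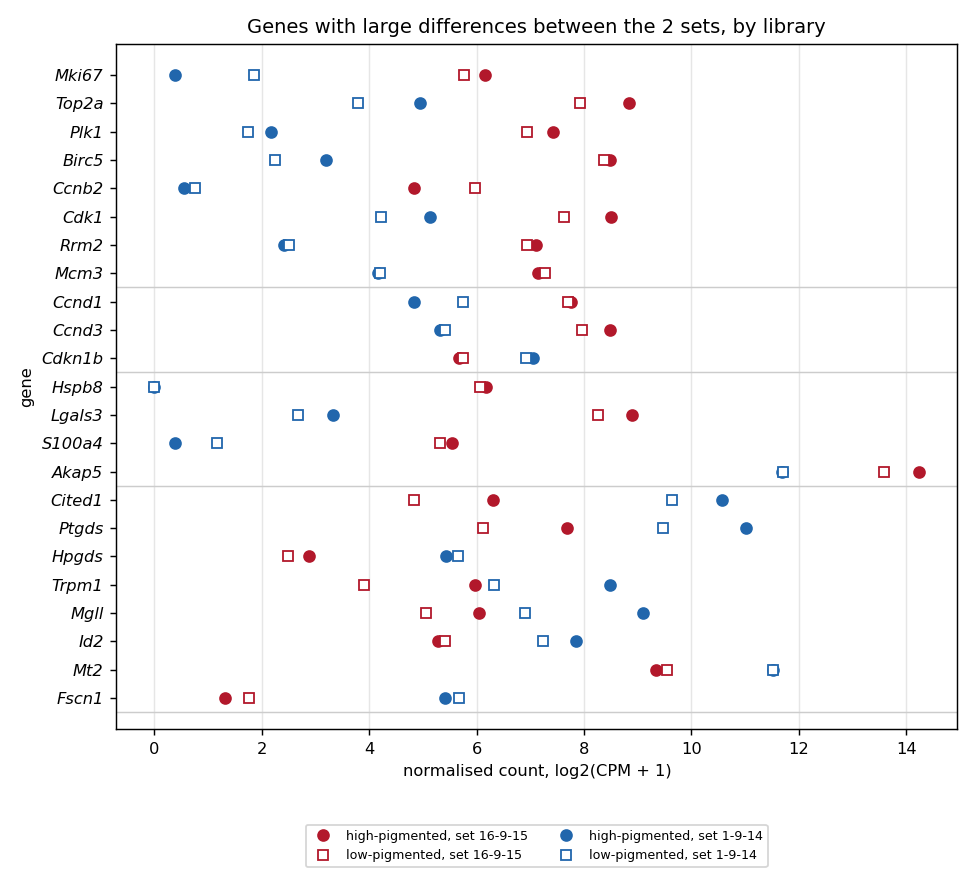
CPM of leading genes in each of the 4 libraries on a log axis, with colours for the sets and marker shapes for the pigment classes. For Top2a, Lgals3 and Akap5 both libraries of set 16-9-15 lie above both of set 1-9-14, and for Cited1 and Ptgds below them.

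Genes of DNA replication were also higher in set 16-9-15. Of 42 members tested, 34 were called higher and 0 lower, all 42 log2 differences were above 0, and the median was 2.51. Rrm2, the subunit of ribonucleotide reductase that limits the supply of deoxynucleotides, was at 136.2 and 122 CPM in set 16-9-15 and at 4.29 and 4.7 CPM in set 1-9-14, a log2 difference of 4.83 ± 0.24 (adjusted p 1.26e-13). Mcm3, part of the replicative helicase, was at 139.8 and 152.8 CPM against 17.0 and 17.4 CPM, a log2 difference of 3.08 ± 0.20. Pola2, a subunit of DNA polymerase alpha, was at 917.6 and 680.2 CPM against 84.9 and 97.4 CPM, a log2 difference of 3.12 ± 0.16. Uhrf1, which carries DNA methylation through replication, had a log2 difference of 4.29 ± 0.28. TTTGAA, the motif of the mitosis genes, was found in 5 of 35 of their promoters (14.3%), close to the 14.0% of all tested genes.

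The genes of homologous recombination and the DNA damage response followed, with 15 of 29 called higher, 1 lower and a median of 1.28. Clspn, an adaptor of the replication checkpoint, was at 34.5 and 28.2 CPM in set 16-9-15 and 2.15 and 2.35 CPM in set 1-9-14, a log2 difference of 3.78 ± 0.40 (adjusted p 7.2e-08). Timeless, which protects stalled forks, was at 34.9 and 35.4 CPM against 6.59 and 4.43 CPM (2.69 ± 0.34). Brca1 was the 1 member called lower, at 77.0 and 31.9 CPM against 181.5 and 59.2 CPM, where the values of the sets overlap (log2 difference -1.08 ± 0.18, adjusted p 8.68e-05, and 0.433 without the pigment block). Without the low-pigmented library of set 1-9-14 its log2 difference was -1.74, and without any of the other 3 libraries it was not called (adjusted p 0.503 to 0.855).

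Regulators of G1 were called in both directions. Of 18 tested, 6 were called higher and 1 lower, with a median of 0.57. The D-type cyclins, which open the way through G1 with CDK4 and CDK6, were higher: Ccnd3 stood at 358.7 and 247.3 CPM against 38.8 and 41.8 CPM, a log2 difference of 2.89 ± 0.18 (adjusted p 2.05e-11). Ccnd1 was at 216.5 and 206.5 CPM against 27.4 and 52.8 CPM, a log2 difference of 2.45 ± 0.21 (adjusted p 1.47e-07). Both overlap an opposite-strand gene, and the strand setting of the counting is not given in the sources used here. Cdkn1b, which encodes the inhibitor p27, was the member called lower, at 50.02 and 52.6 CPM against 132 and 120 CPM (log2 difference -1.29 ± 0.18, adjusted p 5.26e-06). Cdkn2d, which encodes another inhibitor of these kinases, p19, was called higher (0.96 ± 0.19), but not without the high-pigmented library of set 16-9-15 (0.235) or the low-pigmented one of set 1-9-14 (0.0648). With 1 library left out, between 2 and 7 members of the list were called higher, the fewest without the high-pigmented library of set 16-9-15.

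Targets of p53 went both ways, with 7 of 20 called higher and 2 lower and a median of 0.38. Rrm2b, the p53-inducible subunit of ribonucleotide reductase, was at 545.8 and 384.6 CPM in set 16-9-15 and 80.8 and 83.4 CPM in set 1-9-14, a log2 difference of 2.48 ± 0.16 (adjusted p 1.85e-11). Mdm2, which encodes the ligase that degrades p53, had a log2 difference of 0.58 ± 0.13 (adjusted p 0.00221), a call lost without the high-pigmented library of set 16-9-15 (0.467), without either library of set 1-9-14 (0.0861 and 0.311) and without the pigment block (0.0737). Without 1 library between 2 and 4 of the p53 targets were called higher, and DESeq2 called 3. In the Bcl2 family 4 of 16 were called in each direction, with the survival gene Bcl2 at a log2 difference of 1.42 ± 0.25 and Bcl2l11, which encodes the killer protein BIM, at -1.92 ± 0.37, and without 1 library 1 to 3 were called higher and 2 or 3 lower. Hrk, another death gene, had 1 and 0 counts in set 16-9-15 against 49 and 106 in set 1-9-14 (adjusted p 1.79e-05), a ratio of set 1-9-14 to set 16-9-15 of 105 with a counting interval of 18.5 to 4156.

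In the melanin synthesis and melanosome list, 11 of 30 members tested were called lower in set 16-9-15, 2 higher and 17 neither, with a median log2 difference of -0.53. Without the pigment block 4 were called lower. Their summed level was 20690 and 17100 CPM in set 16-9-15 and 31200 and 25860 CPM in set 1-9-14. The high-pigmented library of set 16-9-15 was thus below the low-pigmented library of set 1-9-14 on this sum. Dct alone made up 10160 CPM of the first and 17000 CPM of the second, and without Dct their order is reversed. With 1 library left out and no pigment term, between 1 and 7 members were called lower, the fewest without the low-pigmented library of set 16-9-15.

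Of the 3 enzymes, only Dct passed the test. Tyr, the tyrosinase that starts melanin synthesis (chromosome 7, 87424771 to 87493512), was at 106.9 and 110.7 CPM in set 16-9-15 and at 42.5 and 4.98 CPM in set 1-9-14. Both libraries of set 16-9-15 were above both of set 1-9-14, but the low-pigmented library of set 1-9-14 lay far below the other 3. The log2 difference of 2.63 ± 1.43 did not pass the test (adjusted p 0.464), and it did pass without robust estimation (adjusted p 1.17e-05) and in limma-voom (adjusted p 1.65e-10). It also passed without the high-pigmented library of set 1-9-14, at 4.44, and without the low-pigmented one, at 1.35 (adjusted p 0.000281). Tyrp1, which acts late in the pathway, was at 2110 and 2151 CPM against 2428 and 1830 CPM, with overlapping sets and a log2 difference of 0.02 ± 0.12 (adjusted p 0.948), which was -0.19 without the low-pigmented library of set 1-9-14. Dct, the dopachrome tautomerase, was lower at 10160 and 9194 CPM against 18590 and 17000 CPM, a log2 difference of -0.88 ± 0.11 (adjusted p 8.54e-07). Without the pigment block the adjusted p of Dct was 0.0541, and without any single library it lay between 0.0847 and 0.359.

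The promoters of the 3 enzymes are shown because each holds the same motif, while only Dct was called. They lie at chr7:87493463-87493762 (minus strand) for Tyr, chr4:80833963-80834262 (plus) for Tyrp1 and chr14:118052197-118052496 (minus) for Dct, from the same RefSeq table and build. Capitals mark CATGTG, the core of the M-box to which MITF binds, on either strand (CACATG on the other).
Tyr: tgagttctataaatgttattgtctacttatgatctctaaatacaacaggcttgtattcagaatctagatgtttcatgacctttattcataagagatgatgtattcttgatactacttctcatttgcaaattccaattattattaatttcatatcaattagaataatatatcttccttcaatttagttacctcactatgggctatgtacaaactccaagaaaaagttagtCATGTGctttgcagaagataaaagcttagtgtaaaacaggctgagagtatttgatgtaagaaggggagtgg
Tyrp1: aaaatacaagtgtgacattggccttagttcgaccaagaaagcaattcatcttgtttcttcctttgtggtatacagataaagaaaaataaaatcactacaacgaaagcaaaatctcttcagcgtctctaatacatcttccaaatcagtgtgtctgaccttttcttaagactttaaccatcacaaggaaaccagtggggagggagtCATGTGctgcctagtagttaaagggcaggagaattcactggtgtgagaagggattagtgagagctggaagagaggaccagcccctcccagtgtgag
Dct: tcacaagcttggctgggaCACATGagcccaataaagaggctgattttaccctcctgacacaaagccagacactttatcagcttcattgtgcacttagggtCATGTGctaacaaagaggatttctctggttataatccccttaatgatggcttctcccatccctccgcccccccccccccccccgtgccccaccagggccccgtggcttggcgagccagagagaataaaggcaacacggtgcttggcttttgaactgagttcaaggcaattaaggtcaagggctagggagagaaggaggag
The windows of Tyr and Tyrp1 held 1 match each and that of Dct held 2. CATGTG was found in 7 of 24 melanin genes with a promoter in the table (29.2%), against 9.93% of tested genes and 14.2% of all promoters. It was in 8.54% of genes called higher, 12.2% of those called lower and 9.83% of those not called.

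Among structural and transport genes of the melanosome, Pmel was at 2846 and 1776 CPM in set 16-9-15 and 4751 and 2731 CPM in set 1-9-14, where the sets overlap (log2 difference -0.68 ± 0.11, adjusted p 5.41e-05, and 0.155 without the pigment block). It was not called without either library of set 16-9-15 (0.0959 and 0.648) or without the high-pigmented one of set 1-9-14 (0.708). Myo5a, the motor that carries melanosomes to the cell edge, was at 251.4 and 142.3 CPM against 581.8 and 439.6 CPM, with no overlap (log2 difference -1.42 ± 0.14, adjusted p 2.19e-08). Mlph, the adaptor between RAB27A and that motor, was also lower (-1.19 ± 0.17), but not without the pigment block (adjusted p 0.0556) or the low-pigmented library of set 16-9-15 (0.189), and it was -1.85 without the high-pigmented one. Oca2, a melanosomal channel that sets organelle pH, was at 13.6 and 2.62 CPM against 43.7 and 15.6 CPM, a log2 difference of -2.02 ± 0.36 (adjusted p 0.000117, and 0.125 without the pigment block), and it was not called without the low-pigmented library of set 16-9-15 (0.299) or the high-pigmented one of set 1-9-14 (0.193). It was -3.50 without the high-pigmented library of set 16-9-15. Mlana did not pass the test (log2 difference -0.31 ± 0.12, adjusted p 0.0634). The 2 members called higher were Gpnmb, a melanosomal and lysosomal glycoprotein, at 2159 and 1442 CPM against 1190 and 738.3 CPM (0.91 ± 0.12), and Hps5, a trafficking subunit, with a log2 difference of 1.12 ± 0.21. Both lost the call without the high-pigmented library of set 16-9-15 (adjusted p 0.318 and 0.0765), and Gpnmb also without the low-pigmented one of set 1-9-14 (0.245).

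**Figure D3:**
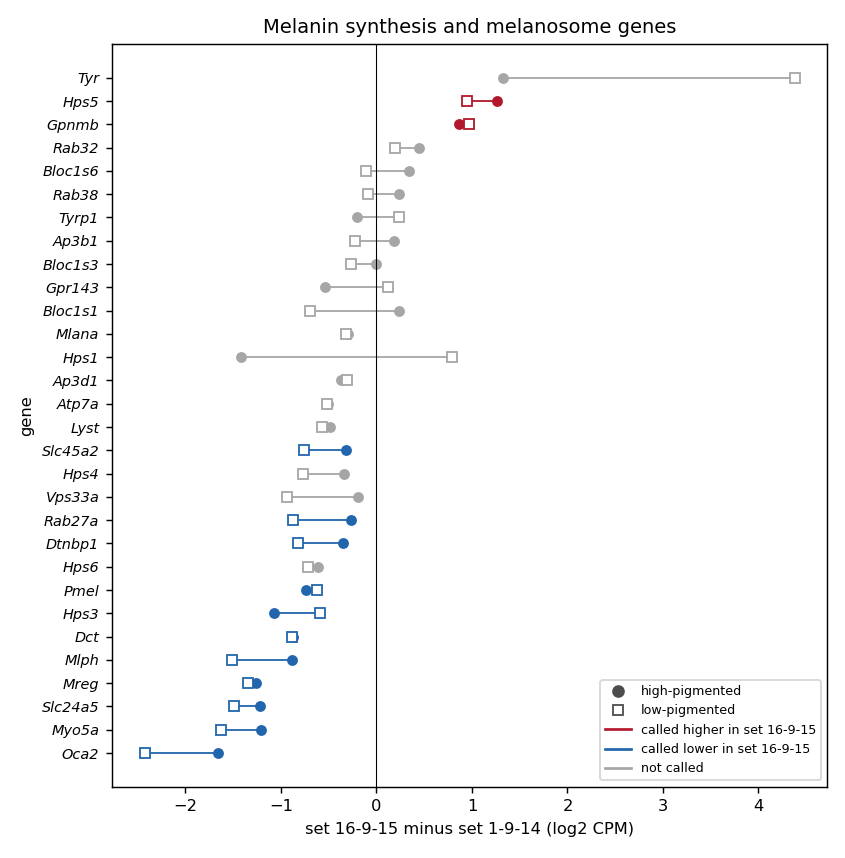
Log2 CPM difference of set 16-9-15 from set 1-9-14 for each melanin synthesis and melanosome gene, in high-pigmented and in low-pigmented libraries as separate points. Most genes lie left of 0, with Oca2 among the lowest, and Tyr lies farther to the right in low-pigmented than in high-pigmented libraries.

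The lineage regulators were lower in 5 of 13 members and higher in 1, with a median of -0.47, and without 1 library 3 or 4 were called lower. Mitf, the master regulator of the lineage, was at 199.9 and 150.4 CPM against 425.7 and 395.5 CPM, a log2 difference of -1.24 ± 0.14 (adjusted p 1.78e-07). Sox10, which activates Mitf, was at 114.5 and 108.1 CPM against 182.1 and 129.6 CPM (log2 difference -0.47 ± 0.16, adjusted p 0.0362). The call of Sox10 was lost in DESeq2 (0.147), on library totals (0.0513), at equal depth (0.0993), without the block (0.141) and without any single library (0.0619 to 0.669). Id2, an inhibitor of basic helix-loop-helix factors, was lower at 38.1 and 41.7 CPM against 230.4 and 148.9 CPM (-2.22 ± 0.19). The member called higher was Mc1r, the melanocortin receptor, with a log2 difference of 0.55, a call lost in DESeq2 (0.0565), at equal depth (0.0523), without the block (0.0988) and without each single library but the low-pigmented one of set 16-9-15 (0.125 to 0.768).

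Cited1, a transcriptional co-regulator of pigment cells (chromosome X, 102247381 to 102252181), had the smallest adjusted p among the genes lower in set 16-9-15, shared with Ptgds. It was at 77.9 and 27.5 CPM in set 16-9-15 and at 1526 and 794.2 CPM in set 1-9-14, so each library of one set was more than an order of magnitude from its counterpart. The log2 difference was -4.55 ± 0.16, or 23.4-fold lower, with an adjusted p of 3.14e-15. It was -5.41 without the high-pigmented and -3.89 without the low-pigmented library of set 16-9-15, and -3.92 without the high-pigmented library of set 1-9-14. Within each set Cited1 was higher in the high-pigmented library.

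Ptgds, the synthase of prostaglandin D2 that is also a secreted carrier of retinoids (chromosome 2, 25466709 to 25470046), was at 203.5 and 68.3 CPM in set 16-9-15 and 2063 and 708.6 CPM in set 1-9-14. The log2 difference was -3.36 ± 0.13 with an adjusted p of 3.14e-15. Within each set it was higher in the high-pigmented library, and without the pigment block the adjusted p was 0.112. It was not called without the high- or low-pigmented library of set 16-9-15 (0.0541 and 0.17), and its log2 difference was -2.39 without the high-pigmented library of set 1-9-14. Hpgds, the other prostaglandin D synthase, was lower at 6.39 and 4.58 CPM against 42.3 and 49.1 CPM, a log2 difference of -3.05 ± 0.32 (adjusted p 4.33e-08). Of the 17 prostaglandin and lipid mediator genes tested, 5 were called lower and 2 higher, with a median of -0.58, and without 1 library between 1 and 5 were called lower, the fewest without the low-pigmented library of set 16-9-15. The 2 higher were Pla2g4a, the phospholipase that frees arachidonic acid, at 12.6 and 12.4 CPM against 1.99 and 1.25 CPM (2.96 ± 0.59), and the fatty acid carrier Fabp5 (0.87). Apoe, a lipid transport protein, was lower at 198 and 120.3 CPM against 613 and 304.9 CPM (-1.49 ± 0.14), and lost its call without the low-pigmented library of set 16-9-15 (adjusted p 0.0763). Mgll, the monoacylglycerol lipase, was at 65.1 and 32.3 CPM against 547.8 and 118.4 CPM (-2.52 ± 0.25), and it was not called without the pigment block (0.265) or without either library of set 16-9-15 (0.609 and 0.71). Its log2 difference was -1.28 without the high- and -3.49 without the low-pigmented library of set 1-9-14.

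Of 17 other genes associated with MITF, 7 were called lower and 3 higher, with a median of -0.46. Without the pigment block 3 were called lower, and without 1 library 2 to 7, the fewest without the low-pigmented library of set 16-9-15. Trpm1, a cation channel of pigment cells, was at 61.3 and 14.0 CPM in set 16-9-15 and 356.2 and 78.8 CPM in set 1-9-14. It was therefore lower in set 16-9-15 in each pigment class and higher in high-pigmented cells in each set. The log2 difference was -2.52 ± 0.18 (adjusted p 4.85e-11, and 0.385 without the pigment block). It was not called without either library of set 16-9-15 (0.574 and 0.757), and was -1.07 without the high- and -3.24 without the low-pigmented library of set 1-9-14.

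Akap5, a scaffold that holds protein kinase A and calcineurin at the membrane (chromosome 12, 76324891 to 76334153), was among the most counted genes. It was at 19390 and 12380 CPM in set 16-9-15 and at 3280 and 3352 CPM in set 1-9-14, a log2 difference of 2.22 ± 0.14 (adjusted p 3.43e-09). The high- and low-pigmented libraries were nearly level in set 1-9-14 and apart in set 16-9-15. With Akap5 counted, 10.5% of the cAMP and protein kinase A list were called higher and 15.8% lower. Over all genes tested these shares were 13.7% and 11.8%. Of the 37 other genes of cAMP and protein kinase A signalling tested, 3 were called higher and 6 lower, with a median of -0.06, and for the whole list of 38 without 1 library 2 to 5 were called higher and 2 to 4 lower. Akap12, a second scaffold of the kinase, was higher (1.97 ± 0.28), while Prkaca, its catalytic subunit, was called lower (-0.56), a call lost in DESeq2 (0.133), without the block (0.0829) and without any single library (0.0839 to 0.332). Nr4a1 and Nr4a3, nuclear receptors that cAMP induces, were both lower, with log2 differences of -1.49 ± 0.22 and -2.14 ± 0.26, the latter -2.87 without the high-pigmented library of set 16-9-15.

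The list of immediate early and AP-1 genes went both ways, with 6 of 24 called higher and 5 lower. Fits without 1 library called fewer of this list lower and no more of it higher. The 6 and 5 called were 25% and 20.8% of that list, against 13.7% and 11.8% of all genes tested. Atf3, a stress-induced factor, was at 65.6 and 100.4 CPM in set 16-9-15 and 8.74 and 14.1 CPM in set 1-9-14, a log2 difference of 2.86 ± 0.23 (adjusted p 4.81e-10). Jun was at 159 and 234.7 CPM against 83.7 and 67.8 CPM (1.36 ± 0.19, adjusted p 1.89e-05). Dusp2, a phosphatase of the MAP kinases, was lower (-1.52 ± 0.19).

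Lgals3, which encodes the sugar-binding protein galectin-3 (chromosome 14, 47367751 to 47386160), had the smallest adjusted p of all genes tested, 1.38e-16. It was at 477 and 305.4 CPM in set 16-9-15 and 9.04 and 5.39 CPM in set 1-9-14, a log2 difference of 5.76 ± 0.19. Hspb8, a small heat shock protein that works in autophagy (chromosome 5, 116408491 to 116422864), had 335 and 303 counts in set 16-9-15 and 0 in both libraries of set 1-9-14, at least 315-fold higher (adjusted p 2.58e-13). Hspb8 was thus not detected in set 1-9-14 at this depth, while Lgals3 was counted in all 4 libraries. S100a4, a calcium-binding protein of motile cells, was at 45.3 and 38.6 CPM against 0.31 and 1.25 CPM (5.70 ± 0.46, and 5.05 and 6.99 without the high- and the low-pigmented library of set 1-9-14), and S100a6 was also higher (3.30 ± 0.43). S100a1 and S100b, the S100 proteins typical of melanocytes, were lower, at -1.98 ± 0.17 and -0.94 ± 0.12, and both calls were lost without the pigment block (adjusted p 0.39 and 0.125). Without the low-pigmented library of set 16-9-15 neither was called (0.753 and 0.492), and S100a1 was also not called without its high-pigmented one (0.48) nor S100b without the high-pigmented one of set 1-9-14 (0.506). S100a1 was -0.85 without the high- and -2.57 without the low-pigmented library of set 1-9-14, and S100b -1.54 without the high-pigmented one of set 16-9-15.

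Genes of the invasive state and targets of YAP were called in both directions, 7 of 23 higher and 5 lower, with a median of 0.39, and without 1 library 3 to 5 were called higher and 1 to 3 lower. Cyr61, a classical YAP target, was at 48.5 and 162.2 CPM in set 16-9-15 and 12.7 and 15.4 CPM in set 1-9-14 (2.71 ± 0.31, and 3.52 and 1.79 without the high- and the low-pigmented library of set 16-9-15). Loxl2, which crosslinks collagen, was at 136.4 and 120.1 CPM against 14.7 and 17.8 CPM (2.97 ± 0.21), although 2348 bases of its transcript are shared with the row Gm21451. Among integrins and matrix genes 4 of 25 were called higher and 6 lower, and 3 or 4 and 2 to 5 without 1 library. The 4 and 6 called were 16% and 24% of that list, against 13.7% and 11.8% of all genes tested. Fibronectin, Fn1, was higher (2.48 ± 0.28) and the laminin chain Lamb1 lower (-1.27 ± 0.23). Fscn1, the actin-bundling protein of cell protrusions, was lower at 1.49 and 2.4 CPM against 41.5 and 49.8 CPM (-4.55 ± 0.37, adjusted p 6.23e-10).

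Other large differences downward were scattered over functions. Zscan10, a zinc finger factor of pluripotent cells, had 0 counts in both libraries of set 16-9-15 and 55 and 291 in set 1-9-14, at least 77.8-fold lower, with a call that DESeq2 did not make (adjusted p 0.154). Hsd11b1, which regenerates active glucocorticoid, was at 2.98 and 3.93 CPM against 23.5 and 56.7 CPM (-3.45 ± 0.36, and -2.76 without the low-pigmented library of set 1-9-14). The metallothioneins Mt2 and Mt1, which bind zinc and copper, were lower in both classes. Mt2 was at 650.3 and 742.2 CPM against 2940 and 2932 CPM (-2.08 ± 0.12, adjusted p 1.52e-12), and the libraries of set 1-9-14 were almost level. Gsta2, a glutathione transferase, was lower (-2.81 ± 0.25), but its whole transcript of 870 bases is shared with Gsta1.

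Interferon and antigen presentation genes were lower in set 16-9-15 in 14 of 32 members and higher in 3, with a median of -0.98. Their summed level was 1258 and 1047 CPM against 2418 and 1995 CPM. H2-D1 and H2-K1 encode classical MHC class I heavy chains, of which H2-D1 was at 191.1 and 129.4 CPM against 423.2 and 404.5 CPM (-1.39 ± 0.15, adjusted p 9.68e-08). H2-D1 shares 280 bases with H2-Q7. H2-K1 was at 65.3 and 41.9 CPM against 152.4 and 200.1 CPM (-1.73 ± 0.21). B2m, the light chain of all class I molecules, was lower too (-0.95 ± 0.14), as were Tap2 (-1.55 ± 0.33) and Tapbp (-1.22), which load peptides. The interferon-induced genes Rsad2 (-1.18 ± 0.14) and Ifit3 (-2.01 ± 0.26) were lower as well. Of these, B2m lost its call without the high-pigmented library of set 1-9-14 (adjusted p 0.0506), Tap2 (0.0586) and Rsad2 (0.0687) without the low-pigmented one of set 16-9-15, and Tapbp without either (0.0873 and 0.201), while Ifit3 was -2.79 without the high-pigmented library of set 16-9-15 and -1.34 without that of set 1-9-14. The members called higher were the chemokines Ccl5 (3.09 ± 0.68) and Cxcl10 (1.19) and the non-classical class I gene H2-T23 (2.41 ± 0.22), which shares 364 bases with H2-Q1. Ccl5 was not called without the high-pigmented library of set 16-9-15 (0.2) and was 4.60 without the high- and 2.10 without the low-pigmented library of set 1-9-14, and Cxcl10 lost its call in DESeq2 (0.144), without the block (0.364) and without 3 of the 4 single libraries (0.514 to 0.853), with a value of 2.51 without the low-pigmented library of set 1-9-14. Leukocyte markers were at or near 0 in both sets, as given above. Without 1 library and the pigment term, 7 to 13 members were called lower, the fewest without the low-pigmented library of set 16-9-15.

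Lysosomal genes were lower in 20 of 40 members and higher in 3, with a median of -0.46. Lamp1, the main membrane glycoprotein of lysosomes, was at 664.7 and 539.4 CPM against 1153 and 954.1 CPM (-0.81 ± 0.12, adjusted p 1.18e-05), but was not called without the low-pigmented library of set 16-9-15 (0.214) or the high-pigmented one of set 1-9-14 (0.12). Mcoln1, the lysosomal calcium channel, was lowest in the list (-2.43 ± 0.52), and Atp6v0a1, a subunit of the proton pump, was also lower (-1.06). Without the low-pigmented library of set 16-9-15 Mcoln1 (0.0591) and Atp6v0a1 (0.212) were not called, nor was Atp6v0a1 without the high-pigmented one of set 1-9-14 (0.148). The 3 called higher were the pump subunit Atp6v1h (1.02 ± 0.19) and the glycosidases Gusb (0.80 ± 0.17) and Manba (3.69 ± 0.54), of which Gusb was not called without the high-pigmented library of set 16-9-15 (0.112) or of set 1-9-14 (0.109). With 1 library left out and no pigment term, the number called lower ranged from 1 to 13, and it was 1 without the low-pigmented library of set 16-9-15 and 2 without the high-pigmented one of set 1-9-14. CACGTG, the core of the element through which TFEB acts, was found in 11 of 31 lysosomal promoters (35.5%). It was in 37.5% of those of melanin genes and in 12.2% of tested genes. The shares were 10.8% of genes called higher, 14.1% of those called lower and 12.2% of those not called.

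Ribosomal protein genes were lower by small amounts and in large number. Of 77 tested, 52 were called lower and 0 higher, with a median of -0.45 and only 2 values above 0. Rps7 was at 738.2 and 995 CPM against 1439 and 2193 CPM (-1.05 ± 0.12), and Rpl23 at 2356 and 2452 CPM against 4317 and 5469 CPM (-1.02 ± 0.12). Neither was called without the high-pigmented library of set 16-9-15 (0.124 and 0.11) or the low-pigmented one of set 1-9-14 (0.0905 and 0.0728), nor Rpl23 without the low-pigmented one of set 16-9-15 (0.0957). The low-pigmented library of set 1-9-14 held the highest sum, 109500 CPM, and the high-pigmented library of set 16-9-15 the lowest, 61540 CPM. The number called fell to 14 without the pigment block and to between 0 and 20 with 1 library left out, and Rps7 shares 651 bases with the row Gm6472. Of 39 genes of ribosome assembly, 7 (17.9%) were called higher and 1 (2.56%) lower, with a median of 0.20. Over all genes tested these shares were 13.7% and 11.8%. Without the block 2 of the assembly genes were called higher, and without 1 library the number ranged from below to above 7.

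Chaperones of the endoplasmic reticulum were higher in 15 of 24 members and lower in 1, with a median of 0.50. Hsp90b1, the chaperone GRP94, was at 2445 and 3594 CPM in set 16-9-15 and 945 and 1195 CPM in set 1-9-14 (1.48 ± 0.12, adjusted p 4.84e-10). Hspa5, the chaperone BiP, was at 7860 and 12680 CPM against 4179 and 5820 CPM (1.02 ± 0.11), and it was not called without the low-pigmented library of set 16-9-15 (adjusted p 0.359) or the high-pigmented one of set 1-9-14 (0.175). Ddit3, the factor CHOP induced by stress of this compartment, was listed with the ATF4 genes. It was higher at 479.1 and 596.4 CPM against 215.4 and 221.4 CPM (1.29 ± 0.13, adjusted p 4.28e-08). Without the pigment block 8 of the chaperone genes were called higher, and without 1 library between 3 and 9. The genes of amino acid supply under ATF4 were called in both directions, 9 of 37 higher (24.3%) and 5 lower (13.5%), with a median of 0.02. Over all genes tested these shares were 13.7% and 11.8%. Ddit4 was called higher, as Ddit3 was (1.17 ± 0.16), while Slc38a2 (-1.06 ± 0.13) and Atf5 (-1.12 ± 0.15) were called lower. The log2 difference of Atf5 was -0.67 without the high-pigmented library of set 16-9-15. Fits without 1 library called fewer of the list in each direction.

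Genes of energy metabolism were listed by the genome that encodes them. Of 47 nuclear genes of oxidative phosphorylation, 18 were called higher and 1 lower, with a median of 0.28, while of 13 mitochondrial ones 0 were called higher and 3 lower, with a median of -0.18. Sdhd, a subunit of succinate dehydrogenase, was at 71.3 and 67.9 CPM against 18.4 and 17.8 CPM (1.94 ± 0.22). The gene mt-Nd6, a mitochondrial subunit of complex I, was at 979.1 and 715.1 CPM against 2137 and 1241 CPM (-0.96 ± 0.12), and it overlaps mt-Nd5 on the opposite strand and was not called without the low-pigmented library of set 16-9-15 (0.206) or the high-pigmented one of set 1-9-14 (0.235). The nuclear genes called higher numbered 9 without the pigment block and 3 to 7 without 1 library, and the mitochondrial genes called lower numbered 1 without the block and 0 or 1 without 1 library. The difference between the nuclear and mitochondrial groups was not tested. Among glycolysis and hypoxia genes 12 of 35 were called higher and 4 lower, with the glucose transporter Slc2a3 higher (1.92 ± 0.23) and the hypoxia-induced Ndrg1 lower (-1.82 ± 0.21), and DESeq2 and the fit without the block each called 6 of them higher, fits without 1 library 4 to 8.

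**Figure D4:**
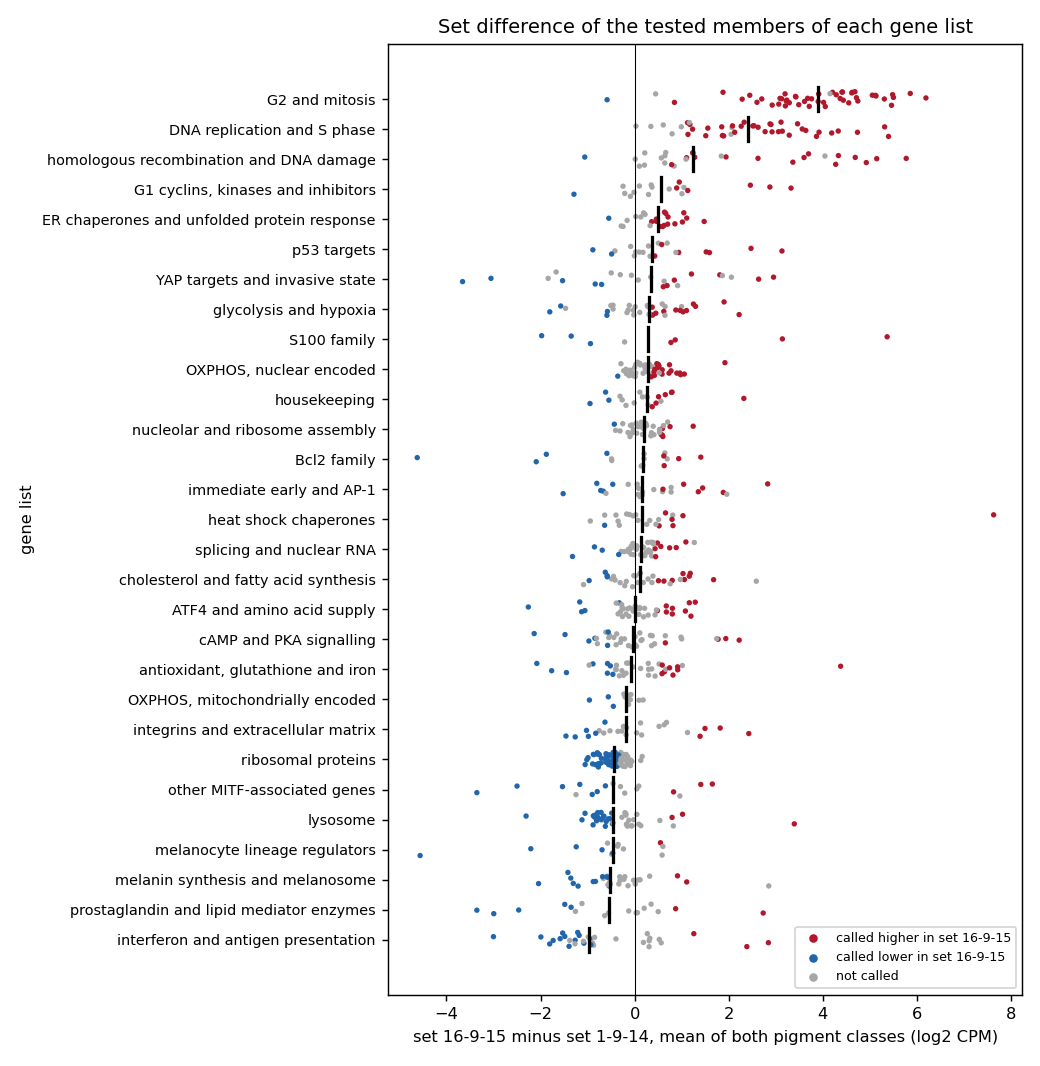
Log2 difference of set 16-9-15 from set 1-9-14, as the mean of both pigment classes, for the tested members of each gene list, with the list median marked. The mitosis and replication lists lie farthest to the right with medians on this scale of 3.91 and 2.42, and the interferon list farthest to the left at -0.97.

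Housekeeping genes did not all stay level. Of 20 tested, 7 were called higher and 3 lower, with a median of 0.27, and without 1 library 1 or 2 were called higher and at most 1 lower. Tubb5, a tubulin, was at 625.6 and 613.6 CPM against 132.6 and 115.1 CPM (2.33 ± 0.14). Eef1a1, the translation elongation factor, was lower (-0.62 ± 0.11), although 1389 bases of its transcript are shared with the row Gm6767. The call of Eef1a1 was lost without the block (adjusted p 0.166) and without any single library. Actb differed by 0.78 ± 0.13, and lost its call without the low-pigmented library of set 16-9-15 (0.318) and without either library of set 1-9-14 (0.0991 and 0.118).

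By chromosome, the 8290 genes with a mean of at least 10 CPM differed most on chromosome 10, where the median log2 difference was 0.35, against -0.02 over all chromosomes. It was 0.35 in high-pigmented and 0.32 in low-pigmented cells. Of the 393 genes there, 33.1% were called higher and 8.65% lower, against 16.2% and 15.2% of all 8290. Without the mitosis and replication genes the median was 0.35. Chromosome 13 lay on the other side, with a median of -0.23 and 9.44% called higher against 21% lower. In the order of the genes along chromosome 10, the medians of 4 successive blocks of 98 or 99 genes were 0.46, 0.44, 0.41 and 0.04, and on chromosome 4 those of 4 blocks of 133 or 134 genes were 0.26, 0.35, -0.10 and -0.04. These chromosomes were picked after their values were seen, no test was made, and no DNA copy number was measured.

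**Figure D5:**
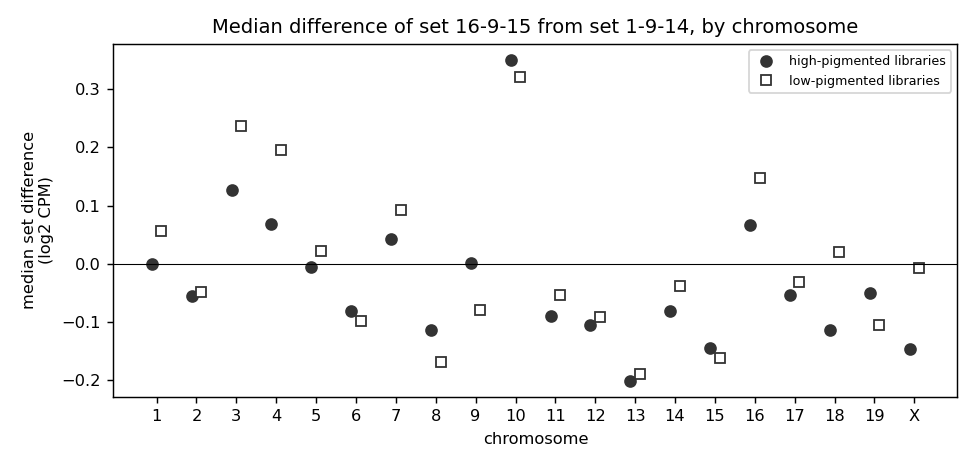
Median log2 CPM difference of set 16-9-15 from set 1-9-14 for the genes of each chromosome, in high- and in low-pigmented libraries. Chromosome 10 stands highest in both classes, at 0.35 and 0.32, and chromosome 13 lowest in both, at -0.20 and -0.19.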

How the data were processed

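Gene counts of 4 libraries (2 sets by 2 pigment classes) were taken from the deposited table of raw counts. The authors counted reads per gene with HTSeq, per the file headers and tally rows, after alignment with STAR to GRCm38, per the submitters' processing notes. Versions, annotation, strand setting and counting mode are not given in the sources used here. Libraries were Lexogen 3′-end libraries, per the labels' protocols, without mention of molecular identifiers.

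The members, gene lists and markers were chosen with earlier results of these data known. Samples were grouped by the suffix of their titles. Genes passing filterByExpr (minimum count 10, 11906 of 18324) were fitted in edgeR 4.0.16 (R 4.3.3) by glmQLFit and glmQLFTest with robust estimation and TMM scaling. Pigment was a block, leaving 1 residual degree of freedom. The median prior degrees of freedom over genes were 23.0, so the error of a gene leans on that of other genes. The method was also run on simulated counts. These had the same fixed spread for all genes and no pigment effect, a simpler setting than these data. Calls used Benjamini-Hochberg adjusted p-values below 0.05. Log2 CPM used a prior count of 2. A comparison with 0 counts was made against 3 counts over the set, and counting intervals are at 95% and cover counting error only. Named genes were up to 15 in each direction by fold among called genes of at least 10 mean CPM without overlap, the markers and pigment genes, and up to 4 members of each of 32 lists by p; other list members were named after their values were seen, and some genes are not reported here. Every 2 libraries differed beyond sampling noise (chi-square over its degrees of freedom 13.5 or more). Reads tallied to no gene or to several genes (1.98% to 2.51%) were left out. Positions are from GENCODE M21, and shared sequence was sought with BLAST+ 2.17.0 (at least 100 bases at 95% identity). Of 143 named genes, 24 share such a stretch with another row, and 37 overlap an exon on the opposite strand. Not marked above for shared sequence are, among others, Dct (202 bases with Dhdh) and Birc5 (169 with Klhl41). Not marked for opposite-strand overlap are, among others, Plk1, Pmel, Rrm2b, Trpm1, Mgll, Mt2, Jun, Fn1, Loxl2, Timeless, Bcl2, Lamp1 and Hsp90b1. Alternatives were other normalisations and filters, DESeq2 1.42.0, limma-voom (limma 3.58.1), thinning, glmTreat, no block, all 6 libraries and each library left out. Figures were drawn with matplotlib 3.10.9.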

Additional observations from a re-analysis of the deposited data

Results flagged for a closer look

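Tyrp1 differed between the sets in opposite directions in the pigment classes: the log2 difference of set 16-9-15 from set 1-9-14 was -0.20 in high-pigmented and 0.23 in low-pigmented libraries, with 1 library of each set in each class. This difference of differences was not tested.

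Reads on no gene, which enter no comparison, were 17.87% (high-pigmented) and 14.24% (low-pigmented) of tallied reads in set 16-9-15, and 13.89% and 12.37% in set 1-9-14. In each pigment class the share was higher in set 16-9-15, and its part in the gene differences was not tested.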

How the results depend on the processing

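The counts of genes higher and lower in set 16-9-15 (1633 and 1402) stayed within 1.5 times under 3 other normalisations, 2 other filters, limma-voom, fits without robust estimation and thinning to equal depth. DESeq2 gave 970 and 740, and glmTreat at 1.5-fold 793 and 379. Without the pigment (replicate) block 1147 and 792 were called; the deviations of the high-pigmented libraries from their set means had a correlation of 0.12 across genes between the sets. With all 6 libraries both counts were 0. With 1 library left out, and then no pigment term, they ranged from 763 to 1243 and from 410 to 858. The fewest higher genes were called without the high-pigmented library of set 16-9-15 and the fewest lower ones without its low-pigmented library. Of 140 genes named by rule and called, 50 lost the call without at least 1 single library. Among the called genes named after their values were seen, a larger share lost it. Tyrp1, at 0.02, was at -0.0214 with all 6 libraries and between -0.19 and 0.22 with 1 left out. No list median changed sign under the 8 alternatives for which medians were computed. Single libraries of 4560186 to 7311131 counts limit what can be said of genes with few counts, such as Psmb8 with 7 and 0 against 22 and 77.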

Other observations

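The set left out, 18-8-14, was set beside the others on a scale common to all 6 libraries. Its libraries stood apart, with mitochondrial ribosomal RNA at 12.2% and 7.69% of gene counts (1.51% to 1.99% in the other 4), and the part of this in the values below was not tested. The summed level of the mitosis genes was 593.6 and 566.9 CPM in its high- and low-pigmented libraries, against 3610 and 2802 CPM in set 16-9-15 and 409.9 and 328.9 CPM in set 1-9-14. Akap5 was at 2932 and 3634 CPM in set 18-8-14, against 14720 and 9340 CPM and 2501 and 2544 CPM. On these values set 18-8-14 stood nearer to set 1-9-14. Cited1 was at 116.7 and 44.7 CPM in set 18-8-14, against 59.1 and 20.8 CPM in set 16-9-15 and 1164 and 602.8 CPM in set 1-9-14. Ptgds was at 260.9 and 118.5 CPM, against 154.5 and 51.5 CPM and 1573 and 537.8 CPM. On these 2 genes it stood nearer to set 16-9-15. Lgals3 had 0 and 14 counts in set 18-8-14. No test was made of these values.

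Among genes with at least 100 counts over one set and 0 over the other, 5 were seen in set 16-9-15 alone (Bub1, Fancd2, Hspb8, Pbk and Shcbp1) and 5 in set 1-9-14 alone (Egr4, Hhatl, Lonrf2, Ptgfrn and Zscan10). Fancd2, a DNA crosslink repair protein, had 63 and 49 counts in set 16-9-15, at least 55.3-fold above the floor. Egr4, an immediate early factor, had 46 and 63 counts in set 1-9-14, at least 24.5-fold above it. Of these 10 genes DESeq2 called Bub1 and Hspb8 and did not call the other 8.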
